A study of Mus musculus with 20 samples.

Results

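The liver profile was taken from 4 DNA chip arrays out of 20 in the series, chosen by the tissue named in the labels, and was set against the 16 arrays of lung, kidney, heart and spleen. Each tissue was hybridized from 2 klotho(-/-) mice and 2 wild-type littermates, all male and 5 weeks old. The klotho(-/-) mouse lacks the klotho protein in the whole body and is used as a model of early ageing, and no other allele or treatment is given in the labels. Small RNA of whole tissue was labelled with 1 dye and hybridized to probes for 200 mouse miRNAs, so every level is that of a mixture of cells, in which fewer cells of a type and less RNA per cell cannot be told apart. The question was which miRNAs distinguish liver from the other tissues in mice of both genotypes.

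A miRNA is a short RNA, cut from a hairpin precursor, which guides silencing of messenger RNAs mainly through its seed, the bases near its 5′ end. Liver is built largely of hepatocytes, and miR-122, called miR-122a on this chip, is their characteristic and most abundant miRNA, with known roles in cholesterol and lipid metabolism. miR-192 and miR-194 are epithelial miRNAs of liver, intestine and kidney. miR-1 and miR-133 are miRNAs of striated muscle, miR-143 and miR-145 of smooth muscle and other mesenchymal cells, and miR-142 of blood cells.

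The mature sequences of the miRNAs on which the results turn are given below from RefSeq (mouse GRCm38.p6), 5′ to 3′, with bases 2 to 8, the seed, in capitals. Of 53 chip names looked up, 46 matched an entry, and miR-122a, miR-1, miR-133a, miR-143 and miR-145 are named only. The first 8 were higher in liver, the next 4 were lower, and let-7g is shown beside let-7i because this closely related pair differed from the other tissues in opposite directions after scaling.
miR-194: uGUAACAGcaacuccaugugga
miR-192: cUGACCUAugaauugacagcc
miR-101a: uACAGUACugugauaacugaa
miR-101b: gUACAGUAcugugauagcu
miR-193: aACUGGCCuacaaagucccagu
miR-22: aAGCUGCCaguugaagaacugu
miR-21: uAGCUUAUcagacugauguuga
miR-31: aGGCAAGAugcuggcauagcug
miR-133b: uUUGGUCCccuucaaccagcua
miR-208: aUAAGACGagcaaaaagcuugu
miR-142-3p: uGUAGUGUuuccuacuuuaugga
let-7i: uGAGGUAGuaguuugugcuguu
let-7g: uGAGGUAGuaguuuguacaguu

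No seed is shared among the first 8 as RefSeq lists them. The listed miR-101b starts 1 base earlier than miR-101a, and the 2 share a run of 15 bases, so they belong to 1 family whose seeds differ here only by that start. let-7i and let-7g share their seed and differ at 2 of 22 positions counted from the 5′ end, G17A and U19A, where the let-7i base stands first. One of the 2 copies of miR-194 lies 177 bases from miR-192 on chromosome 19, on the same strand (Mir194-2 at chr19:6264658-6264679 and Mir192 at chr19:6264857-6264877), and the other copy, Mir194-1, is on chromosome 1 (chr1:185313325-185313346).

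The liver arrays were dim. Deposited signals, which the authors had reduced by a constant per array, summed to 10784 and 7890 on the klotho(-/-) liver arrays and to 4162 and 5630 on the wild-type ones, against 7317 to 57568 on the other 16 arrays. Between 51 and 67 of the 200 probes reached a signal of 10 on a liver array, against 82 to 116 elsewhere. Because the arrays had not been scaled to each other by the authors, they were scaled here by quantile normalization over all 20, and a signal after that step is called scaled. A deposited signal of 10 came to a scaled signal of 33.5 to 64.3 on the liver arrays and of 5.14 to 18.8 on the others, so that dim probes are less certain in liver. The 4 liver arrays resembled each other, with Pearson correlations of 0.953 to 0.982 across probes, and their mean was nearest to kidney (0.858), followed by lung (0.790), spleen (0.753) and heart (0.675). These are descriptions across 200 probes of arrays that share 1 scaling, and probes are not independent replicates.

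miR-122a dominated the liver. It held 38.9% and 39.5% of the summed deposited signal on the klotho(-/-) liver arrays and 39.0% and 37.7% on the wild-type ones, a mean of 38.8% ± 0.762 (SD, n = 4). On the other 16 arrays its share was at most 0.113%, and the brightest probe of any kind held 4.07% to 14.2%. Thus no probe of another tissue took as large a part of its array, including miR-1 in heart. The 5 brightest probes together held 52.2% to 53.5% in liver and 18.0% to 45.7% elsewhere. After miR-122a came miR-22 (4.97% ± 0.429), let-7a (3.15% ± 0.382), let-7f (3.06% ± 0.211) and miR-21 (2.62% ± 0.737). Of these only miR-122a had a share beyond the range of the other arrays, since miR-22 reached 5.02%, let-7a 6.65%, let-7f 4.82% and miR-21 3.11% on at least 1 of them.

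**Figure D1:**
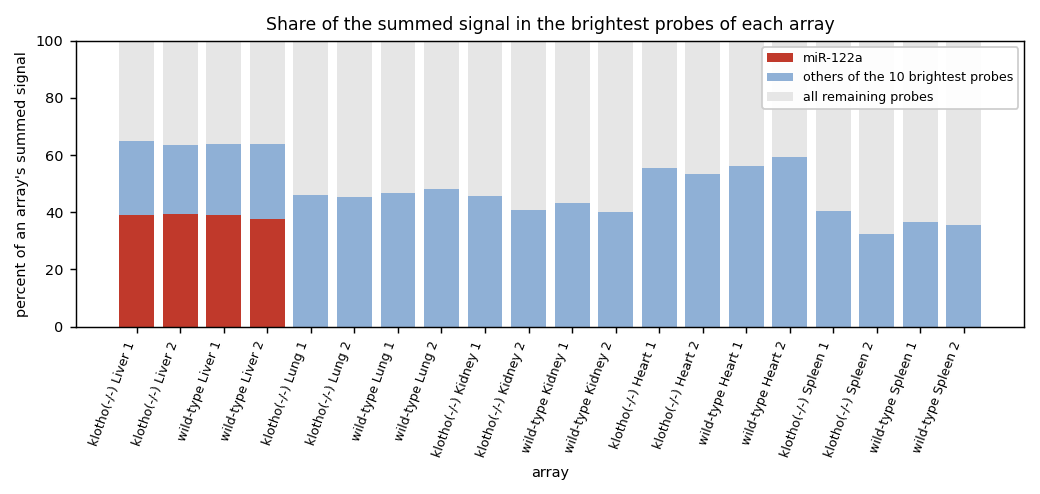
Percent of the summed deposited signal (y axis) held by miR-122a (red), by the others of the 10 brightest probes (blue) and by all remaining probes (grey) on each of the 20 arrays (x axis). miR-122a takes 37.7% to 39.5% of each liver array, and the 10 brightest probes hold 63.5% to 64.9% there against 32.4% to 59.3% on the other arrays.

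A miRNA was called rich in liver when its log2 difference between liver and the mean of the other 4 tissues was above 1 with an adjusted p under 0.05 in a limma model over all 20 arrays with genotype as a covariate, and poor when the difference was below -1. The differences are on the log2(scaled signal + 50) scale, which draws those of dim probes toward 0. Of 200 miRNAs, 9 were rich (4.5%) and 8 poor (4%). Without the minimum of 1, 47 were higher (23.5%) and 57 lower (28.5%), with 21 of the higher ones and 38 of the lower ones below a deposited signal of 10 on all 4 liver arrays. None of the 9 rich miRNAs was that dim in liver, whereas 5 of the 8 poor ones were. No probe reached 10 on all 4 liver arrays while staying below it on the other 16.

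Among the rich miRNAs, miR-122a stood first. Its deposited signals were 4196 and 3120 in klotho(-/-) liver and 1625 and 2125 in wild-type liver, against a lowest, median and highest value of 3, 4 and 11 on the other 16 arrays. The groups were far apart, and only 1 lung and 1 heart array reached a signal of 10. Its log2 difference was 5.25 ± 0.05 (SE, n = 4 liver and 16 other arrays, limma adjusted p = 8.4e-23). As the brightest probe of every liver array it received the same scaled value, 2078, on all 4, so this scale keeps no spread for it in liver. Liver exceeded kidney at least 182-fold and spleen at least 147-fold in scaled signal, where the lesser value was taken at the scaled signal that corresponds to a deposited signal of 10. With the arrays scaled by the median of the 44 probes that reached 10 on all of them, the log2 difference was 7.30.

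miR-194 was the next. It had scaled signals of 605.9 and 806.5 in klotho(-/-) liver and 806.5 and 869.8 in wild-type liver, and the other 16 arrays ran from 6.42 over a median of 11.97 to 401.6. Kidney accounted for the upper end of that range, with 123.9 and 176.6 in klotho(-/-) mice and 401.6 and 338.4 in wild-type mice, and klotho(-/-) Spleen 1 was the highest of the rest at 72.0. The difference from the mean of the tissues was 3.12 ± 0.21 (adjusted p = 1.65e-09), and that from kidney alone 1.5 ± 0.26 (adjusted p = 0.000187). For miR-194 the ratio of liver to kidney in geometric mean scaled signal, a mean taken over log2 values, was 3.28. Its chromosomal neighbour miR-192 likewise had its highest signals in liver, followed by kidney, with scaled signals of 87.6 to 123.9 in liver, 29.3 to 48.8 in kidney and at most 6.20 in lung, heart and spleen. The liver and kidney arrays did not overlap for either miRNA after scaling. Before scaling they did, with deposited signals of 103 to 216 in liver and 182 to 227 in kidney for miR-194 and of 18 to 36 and 30 to 38 for miR-192. The log2 difference of miR-192 was 1.37 ± 0.06 (adjusted p = 2.12e-11), and it was 0.83 ± 0.08 against kidney (adjusted p = 3.89e-07). miR-192 is therefore among the rich miRNAs but not among those above 1 against each tissue.

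The miR-101 pair, which silences the histone methyltransferase Ezh2 among other targets, differed in how far it stood out. miR-101b had scaled signals of 465.8, 490.2, 510.9 and 490.2 on the liver arrays and 17.0 to 33.5 on all others, a log2 difference of 2.79 ± 0.06 (adjusted p = 2.9e-17). The other tissues were alike in miR-101b, with mean scaled signals of 26.0 in spleen, 27.03 in heart, 29.0 in lung and 29.9 in kidney. The liver ratio to them, in geometric mean scaled signal, was 16.5 to 19.4. miR-101a was at 268.6, 294.8, 250.6 and 338.4 in liver and from 38.8 to 118.2 elsewhere, with a difference of 1.38 ± 0.10 (adjusted p = 3.26e-09). The liver arrays were above every other array in both after scaling. Before scaling this was so for neither, since the deposited signals were 55 to 131 in liver and up to 80 in lung for miR-101b, and 32 to 102 in liver and up to 228 in lung for miR-101a. Without scaling the differences were 0.80 for miR-101b and -0.32 for miR-101a.

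Of the remaining 4 rich miRNAs, miR-22, miR-21 and miR-193 were bright in at least 1 other tissue as well, and miR-31 was dim throughout. miR-22 was the second brightest probe on each liver array, with a scaled signal of 1479 on all 4, against 182.9 to 1318 on the others, where wild-type Kidney 1 held the highest value. As with miR-122a, this scale keeps no spread for miR-22 in liver. Its difference was 1.44 ± 0.14 (adjusted p = 1.76e-07), and it was 0.69 ± 0.17 from heart, the nearest tissue (adjusted p = 0.00426). miR-21, which is raised in many tumours and in injured tissue, was at 932.0 and 577.1 in klotho(-/-) liver and 869.8 and 707.9 in wild-type liver. Spleen came near it, with 417.6 to 707.9, and the liver and spleen arrays overlapped. The difference of miR-21 was 1.33 ± 0.13 from the mean of the tissues (adjusted p = 1.93e-07) and 0.43 ± 0.16 from spleen (adjusted p = 0.0499). miR-193 had 148.9 and 200.1 in klotho(-/-) liver and 309.3 and 250.6 in wild-type liver, with kidney at 118.2 to 148.9 and heart and spleen at most at 29.3. Its difference was 1.45 ± 0.11 (adjusted p = 6.66e-09) and reached 0.60 ± 0.14 from kidney (adjusted p = 0.00196). miR-31 had deposited signals of 22 to 29 in liver and 32 to 64 in lung. After scaling its liver arrays, at 64.3 and 87.6 in klotho(-/-) mice and 140.1 and 131.4 in wild-type mice, were above all others, of which the highest was 22.7. Its difference was 1.20 ± 0.09 (adjusted p = 6.92e-09).

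**Figure D2:**
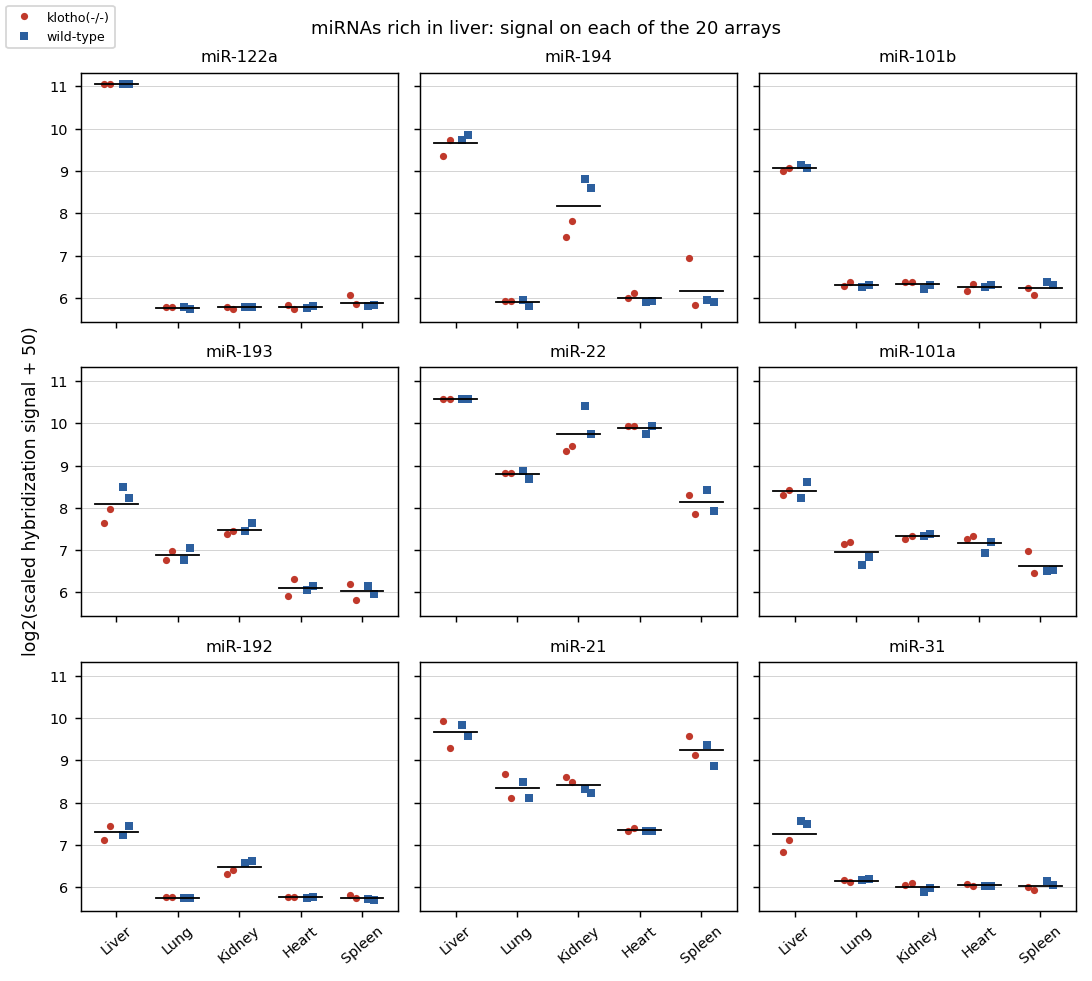
Signals of the 9 miRNAs rich in liver on each of the 20 arrays, as log2(scaled signal + 50) on the y axis and by tissue on the x axis. Circles are klotho(-/-) and squares wild-type mice, and the bar is the mean of the 4 arrays of a tissue; miR-122a and miR-101b separate liver from all tissues, whereas kidney follows in miR-194, miR-192 and miR-193, heart in miR-22 and spleen in miR-21.

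Against each of the 4 tissues separately, 5 miRNAs were above 1 with an adjusted p under 0.05 (2.5% of 200), namely miR-122a, miR-194, miR-101b, miR-101a and miR-31. Without wild-type Liver 2, miR-101a was no longer among them. In 12 miRNAs (6%) the 4 liver arrays were above all 16 others after scaling, and besides 7 of the 9 rich miRNAs these were miR-290, miR-292-3p, miR-293, miR-294 and miR-299. This order was read at background for miR-293, miR-294 and miR-299, whose deposited signals were 2 to 3 on the liver arrays. miR-292-3p had deposited signals of 5 to 6 on the liver arrays and 12 in klotho(-/-) Spleen 2. Without scaling its difference was 0.03 and did not pass (adjusted p = 0.351). miR-290 was at 0.94, and its deposited signals were 79 in klotho(-/-) Liver 1 and 13, 17 and 14 on the other liver arrays, against 15 to 50 elsewhere. Its place above the other tissues thus appeared only after scaling. Nearest to the threshold of 1 were miR-31 at 1.20 inside and miR-130a at 0.97 outside.

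Apart from let-7i, which is given last, the poor miRNAs formed 3 kinds by the tissues in which they were bright. miR-145 and miR-143 were lower in liver than in every other tissue. miR-145 had scaled signals of 123.9 and 99.7 in klotho(-/-) liver and 82.4 and 75.6 in wild-type liver, against a lowest, median and highest value of 294.8, 409.6 and 1479 elsewhere, with a difference of -1.76 ± 0.17 (adjusted p = 2.29e-07). miR-143 was at 170.1, 193.3, 226.2 and 213.1 in liver and at 465.8, 577.1 and 2078, in the same order, elsewhere, with a difference of -1.49 ± 0.19 (adjusted p = 6.37e-06). No liver array overlapped another tissue in either, although both were measured in liver, with deposited signals of 14 to 46 and 29 to 58. In geometric mean scaled signal, liver was below kidney, the tissue nearest to it, by a ratio of 3.23 for miR-145 and 2.33 for miR-143. It was below spleen by 7.33 and 5.57. These 2 were the only miRNAs below -1 against each of the 4 tissues (1% of 200). With the median scaling none was, and with the summed signal except miR-122a as the scale 1 was. miR-143 was no longer among them without klotho(-/-) Lung 2 or without klotho(-/-) Liver 1.

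The second kind was bright in heart and comprised miR-1, both miR-133 miRNAs and miR-208, the last of which lies in a gene of heart muscle myosin. Their deposited signals were 1 to 3 on every liver array. In heart the deposited signals were 2827 to 3832 for miR-1, 2217 to 3790 for miR-133a, 1889 to 3318 for miR-133b and 650 to 1042 for miR-208. Liver was below heart by at least 41.2-fold for miR-1, 29.4-fold for miR-133a, 26.2-fold for miR-133b and 14.3-fold for miR-208. The differences from the mean of the tissues, from -1.04 for miR-208 to -1.62 for miR-1, rested on heart. Against kidney they ran from -0.10 to 0.00 and against spleen from -0.11 to 0.06, none with an adjusted p under 0.05, and when heart was left out miR-1 was at -0.39 and miR-208 at -0.10. In lung the deposited signals were 65 to 235 for miR-1 and 25 to 56 for miR-208. Liver was below lung by at least 1.04-fold for miR-1, and for the other 3 the mean scaled signal in lung, 16.1 to 35.9, was too low to bound a fold against the dim liver arrays.

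The third kind was miR-142-3p, with scaled signals of 16.04 to 22.7 in liver, 250.6 and 806.5 in klotho(-/-) spleen and 1318 on both wild-type spleen arrays. It was lower in liver than in spleen by at least 15.3-fold (log2 difference -3.60 ± 0.30, adjusted p = 3.4e-08). Against lung, kidney and heart its differences of -0.60, 0.20 and -0.18 did not pass, and without spleen its difference from the mean was -0.19. The last poor miRNA, let-7i, had scaled signals of 104.0, 95.4, 95.4 and 110.6 in liver and of 148.9 to 465.8 elsewhere. As for miR-145 and miR-143, the liver arrays of let-7i did not overlap the others. Its difference was -1.06 ± 0.08 (adjusted p = 7.26e-09), the most negative against spleen (-1.54 ± 0.10) and the nearest to 0 against kidney (-0.55 ± 0.10). Just inside the threshold of -1 was miR-208 at -1.04, and just outside it miR-181a at -0.97, which had 18.2 to 30.5 in liver and 51.8 to 193.3 elsewhere. The call of miR-208 was lost without wild-type Lung 1 (-0.99), and that of miR-142-3p without either wild-type liver array (-0.96 and -0.97), klotho(-/-) Lung 1 or wild-type Spleen 1 (both just above -1).

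**Figure D3:**
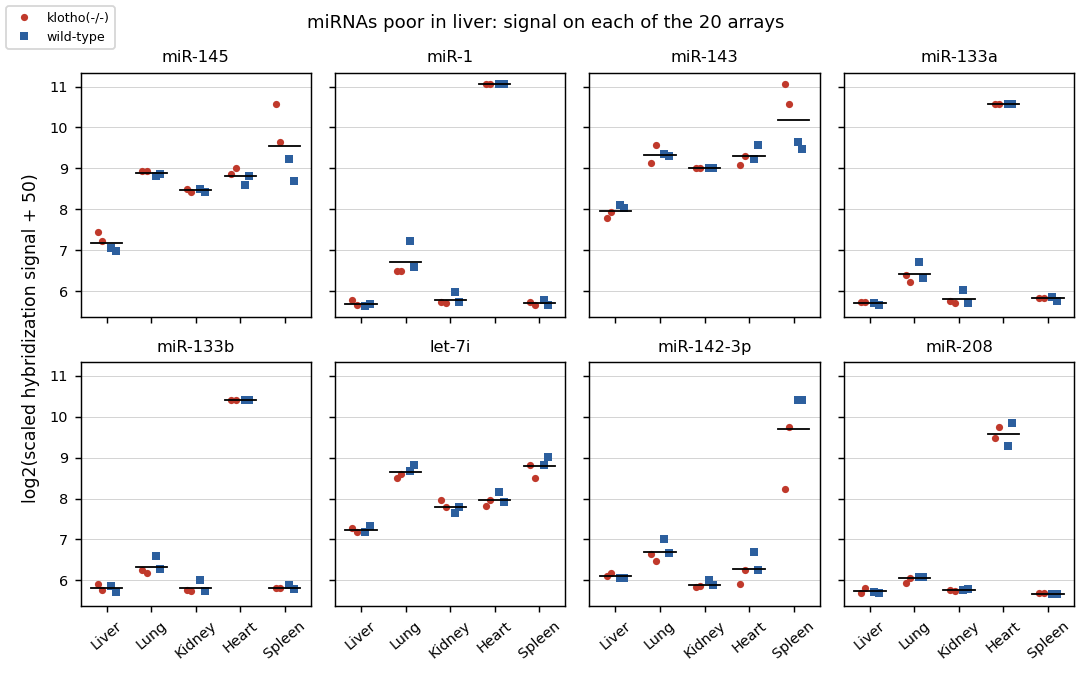
Signals of the 8 miRNAs poor in liver on each of the 20 arrays, as log2(scaled signal + 50) on the y axis and by tissue on the x axis, with circles for klotho(-/-) mice, squares for wild-type mice and a bar for the mean of the 4 arrays of a tissue. miR-145, miR-143 and let-7i are lower in liver than on every other array, while the miRNAs of striated muscle are bright in heart and miR-142-3p in spleen.

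In 10 miRNAs (5%) the 4 liver arrays were below all 16 others. Apart from miR-145, miR-143, let-7i and miR-181a these were both strands of miR-199a, miR-497, miR-128a, miR-138 and miR-151. The last 3 had deposited signals of 1 to 2 on the liver arrays, and miR-138 of 1 to 3 on all 20, so their place was read at background. Before scaling, miR-181a, miR-181b, miR-199a, miR-497, miR-140 and miR-146b did not reach a deposited signal of 10 on any liver array. They did so on all 16 others. After scaling miR-140 was at 0.00 and miR-146b at -0.12, and neither passed (adjusted p = 0.97 and 0.217). The mean scaled signal of miR-146b was 26.5 in liver, 14.3 in kidney, 13.3 in heart, 61.8 in lung and 55.7 in spleen.

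The differences in families and cell type lists are given as counts of members that passed the test in the comparison with the mean of the tissues, beside 23.5% of all probes higher, 28.5% lower and a median of -0.01 over all 200. The lists had been chosen with results of these arrays known. Of 9 miRNAs listed for hepatocytes and liver epithelium 6 were measured, and all 6 were higher and rich (median 2.12). Without scaling 4 of the 6 were higher and 1 was lower with a passing test (median 0.60). Of 5 measured for striated muscle, 4 were lower (median -1.28), and miR-206, of skeletal muscle, was at 0.00. Of 5 for leukocytes, 4 were lower (median -0.71), among them miR-150 of mature lymphocytes at -0.81 ± 0.19, and miR-155 was at -0.10. These 4 had higher mean scaled signals in lung and spleen than in liver. Kidney was below liver for miR-142-3p (9.62 against 18.65), miR-142-5p (6.31 against 11.3) and miR-146 (19.9 against 32.4). For miR-150 kidney was at 6.63 and liver at 4.46. Heart was below liver for miR-142-5p (9.61) and miR-146 (15.4), and above it for miR-142-3p (29.1) and miR-150 (28.6). The summed deposited signal of the leukocyte list was 11 to 24 on the liver arrays and 33 to 1092 elsewhere, and that of the muscle list 6 to 11 and 12 to 11716. All 4 members measured for smooth muscle and stroma were lower (median -1.21), with a summed signal of 50 to 121 on the liver arrays against 362 to 3758 elsewhere. Of these 4, miR-143 and miR-145 were at 10 or more on all liver arrays, and miR-199a was below 10 on all of them. Of the endothelial pair, miR-126-3p was lower by 0.58 on the log2 scale, with a difference of -2.46 from lung, 0.03 from kidney and 1.08 from spleen. The miR-200 family, which marks many epithelia, was lower in 4 of 4 members (median -0.58). Its members were below a signal of 10 on all liver arrays, and the most negative difference was that of miR-200a from kidney (at least 4.01-fold lower in liver). Heart was no higher than liver, with mean scaled signals of 2.64 against 17.0 for miR-200a and 3.42 against 22.5 for miR-200b. Spleen was at 13.4 and 21.4 for these 2. For miR-200c and miR-141 it was at 15.9 and 12.8, against 3.68 and 2.96 in liver. These spleen means rested on klotho(-/-) Spleen 1, where the family had scaled signals of 34.7 to 69.4. On the other spleen arrays miR-141 was at 3.29 to 9.35 and miR-200c at 2.52 to 8.32. There miR-200b reached at most 10.3 and miR-200a at most 5.2. The paper excepts klotho(-/-) spleen from its reproducible duplicates and proposes differences between individuals. In these lists the members named as lower were lower under all 4 ways of scaling described below.

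Families of broadly expressed miRNAs differed in smaller steps. The let-7 family, which represses growth-promoting genes such as Lin28 and Ras genes, was divided, with 2 of 8 members higher, 1 lower and 5 that did not pass. let-7g, at 553.6 to 661.6 in liver and 226.2 to 605.9 elsewhere, was higher by 0.59 ± 0.06 (adjusted p = 6.92e-07), although it was at -1.17 without scaling, and let-7f was higher by 0.47 ± 0.10 and at -1.60 without scaling. let-7i was lower under all 4 scalings, whatever the direction of let-7g. All 3 members of the miR-29 family, which targets collagens, were higher with 3 of the scalings, at 0.69 ± 0.10 for miR-29a, 0.55 ± 0.19 for miR-29c and 0.44 ± 0.12 for miR-29b, and lower without scaling (-1.15, -1.01 and -1.11). The difference of miR-29b was 0.15 in wild-type and 0.73 in klotho(-/-) mice. Its wild-type liver arrays, at 157.2 and 226.2, overlapped the other wild-type arrays, at 148.9 to 182.9. The miR-23/24/27 clusters were lower in 5 of 5 members under each scaling, with a median of -0.75 after quantile normalization. For these the difference lay in lung, kidney and heart, since against spleen miR-24 was at -0.04 and miR-23a at -0.11, neither of which passed.

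Of the miR-99 and miR-125 members 4 of 4 were lower (median -0.40), of the miR-15/16 family 3 of 5 (median -0.42) and of the miR-30 family 3 of 7 (median -0.09), where miR-30a-5p was at 1.59 against spleen and -1.04 against kidney. Without scaling 7 of 7 in the miR-30 family were lower (median -1.50), and with the summed signal as the scale 1 was higher and 1 lower. Of 11 measured miRNAs from the clusters around miR-17, 2 were higher (median 0.07), but 0 were higher and 10 lower without scaling (median -0.65). Of 10 members of the embryonic miR-290 cluster 7 were higher, with a median of 0.33, and of 28 miRNAs of the Dlk1-Dio3 imprinted cluster 9 were higher and 2 lower. With the median scaling and with the summed signal, 19 of the 28 were higher and 0 lower. Most of these probes were dim, and 6 of the 10 and 26 of the 28 did not reach 10 on any liver array. Without scaling none in either list was higher with a passing test.

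The direction of several differences depended on how the dim liver arrays were scaled. The count of rich and poor miRNAs was 9 and 8 with quantile normalization, 9 and 5 with the median scaling, 9 and 5 with the summed signal except miR-122a as the scale, and 2 and 46 with no scaling, where the median over all probes was -0.18 in place of -0.01. The share of calls that were higher was thus 52.9%, 64.3%, 64.3% and 4.17%. The 9 rich miRNAs were the same in the first 3, and miR-122a and miR-194 were rich in all 4. Without scaling miR-193, miR-22, miR-101a and miR-21 were at -0.20, -0.57, -0.32 and -0.41, and miR-130a and miR-290 also turned negative (-0.87 and -0.01). miR-145, miR-143, miR-1, miR-133a and miR-133b were poor in all 4.

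**Figure D4:**
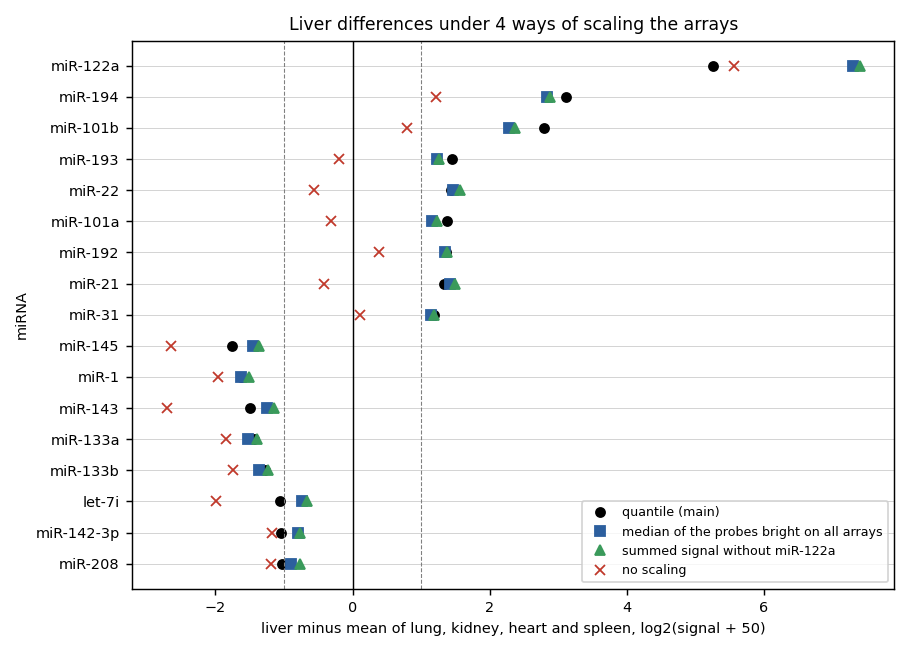
Log2 difference of liver from the mean of the other tissues (x axis) for the 9 rich and 8 poor miRNAs (y axis), with quantile normalization (black circles), the median of the probes bright on all arrays (blue squares), the summed signal without miR-122a (green triangles) and no scaling (red crosses), and dashed lines at 1 and -1. Without scaling 4 of the 9 rich miRNAs lie below 0, and the 8 poor miRNAs stay below 0 in each.

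The liver profile was then compared between genotypes, with the liver difference fitted separately in wild-type and klotho(-/-) mice. The scaled values of miR-122a and of miR-22 are each the same on all liver arrays. For these miRNAs this comparison cannot show a difference between genotypes within liver. For miR-194 the differences were 3.19 in wild-type and 3.05 in klotho(-/-) mice, and for miR-101b 2.81 and 2.77, neither with a difference between genotypes that passed (adjusted p = 0.923 for each). Of 200 miRNAs 9 passed (4.5%), and of the rich and poor ones only miR-31 did so, with 1.48 in wild-type and 0.91 in klotho(-/-) mice, a difference of -0.57 ± 0.11 (adjusted p = 0.0169). Its klotho(-/-) and wild-type liver arrays did not overlap after scaling. Their deposited signals of 24 and 27 against 22 and 29 did, and the summed signals of the klotho(-/-) liver arrays were the higher ones. The difference between genotypes of miR-31 passed in 29 of 34 alternatives (adjusted p = 0.00154 to 0.995) and was at -0.09 without scaling, where it did not pass. miR-26b, a widely expressed miRNA, differed by -0.65 ± 0.14 (adjusted p = 0.0266), and was at 0.05 without scaling. miR-34a, a target of p53, differed by -0.48 ± 0.11 (adjusted p = 0.0266) with deposited signals of 4 to 7 in liver. The others by p were miR-294 (-0.09) and miR-412 (-0.10), whose deposited signals were 2 on each liver array. The number that passed was 2 without klotho(-/-) Lung 2 or wild-type Lung 1, 5 without wild-type Kidney 2 and 22 without klotho(-/-) Spleen 2, and it was 43 with the median scaling. It was 0 without lung or without kidney. miR-26b and miR-412 no longer passed without klotho(-/-) Lung 2, wild-type Lung 1, klotho(-/-) Liver 1 or wild-type Liver 2, and miR-34a without these arrays, wild-type Liver 1 or wild-type Kidney 2 (adjusted p = 0.0509 to 0.116 in these fits).

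**Figure D5:**
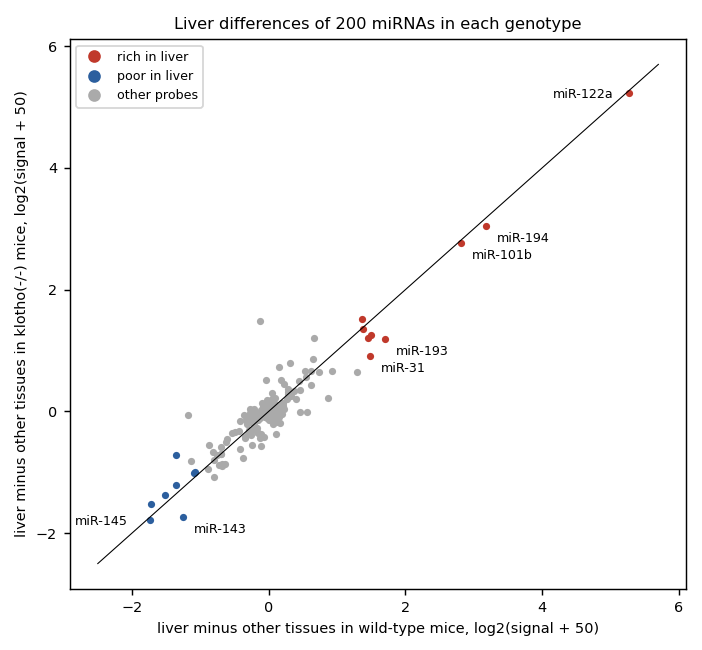
Log2 difference of liver from the mean of the other tissues in wild-type mice (x axis) and in klotho(-/-) mice (y axis) for 200 miRNAs, with rich miRNAs in red, poor ones in blue, the others in grey and the line of equal values. miR-194 and miR-101b lie near the line, miR-122a is placed by a scaled value that is equal on all liver arrays, and miR-31 lies below the line with 1.48 in wild-type and 0.91 in klotho(-/-) mice.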

How the data were processed

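Hybridization signals of 200 probes on 20 Genopal-MICM DNA chips were analysed. The authors deposited 2 tables of intensity. In the first the intensity is not background subtracted. The second holds whole numbers from which the authors had taken off 16.7 to 21.6, a constant for each array, with a lowest value of 1 to 3 and no scaling between arrays. Deposited signals in the text come from this one.

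The first table's background was corrected by normexp with an offset of 50 (limma 3.58.1, R 4.3.3), followed by quantile normalization over 20 arrays and log2. Scaled signals are these values on the linear scale with the offset taken off. A limma model with tissue and genotype (lmFit, contrasts, eBayes with a trend, 14 residual and a median of 2.2 prior degrees of freedom) gave liver minus the mean of 4 tissues and minus each of them. The difference between genotypes came from a model with 10 groups. P-values were adjusted by Benjamini-Hochberg over 200 probes, with a threshold of 0.05 and a minimum difference of 1. A fold given as "at least" uses, on arrays where a probe was below a deposited signal of 10, the scaled signal of that level. Ratios and these folds compare geometric means, taken over the log2 of scaled signals. The fits were tested on simulated data.

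The members, lists and tests were chosen with earlier results of these data known. Named were up to 15 rich and 15 poor miRNAs, those next to the threshold, up to 5 by p for the genotype difference, members of the lists, and miRNAs that turned under another scaling. The alternatives were other backgrounds, offsets, scalings, filters and models, and the loss of an array or a tissue. The numbers 1 and 2 mark individual mice in the study's legends, and whether the tissues of a number came from 1 animal is not stated. P-values measure the spread between these arrays, and the number of arrays limits their precision. Old probe names were matched to RefSeq names by hand.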

Additional observations from a re-analysis of the deposited data

Results flagged for a closer look

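On the 4 liver arrays, a single array stood apart from the other 3 in 2 of the named miRNAs, by the ratio of its gap to the whole range of log2 values. The ratio was 0.909 for miR-208, where klotho(-/-) Liver 2 had a scaled signal of 6.61 against 1.79 to 2.21, all of them near background. It was 0.856 for miR-125b, where wild-type Liver 1 had 61.3 against 50.3 to 51.8. Chance alone marks about 1 in 20 such groups.

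The liver difference differed between genotypes in 9 miRNAs, given here as klotho(-/-) minus wild-type. It was -0.647 for miR-26b, -0.568 for miR-31 and -0.480 for miR-34a. It was 0.575 for miR-29b, with deposited signals of 171 and 122 in klotho(-/-) liver and 22 and 39 in wild-type liver, and this direction was the same under all 4 scalings. It was 0.257 for miR-139, which had -0.09 with the median scaling. It was -0.184 for miR-293, -0.101 for miR-412, -0.0947 for miR-294 and -0.0452 for miR-464, whose deposited signals were at most 6 on any array. With probes limited to a mean signal of 10 in at least 1 tissue, 3 of the 9 remained.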

How the results depend on the processing

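The 9 rich miRNAs were rich in each setting run other than the offset of 100 and no scaling. The causes of the changes were not tested except where given. With the second table and a pseudocount of 8, 17 were rich and 19 poor, 8 and 5 against each tissue, and 1 differed between genotypes. With an offset of 16, 15 were rich and 15 poor. With an offset of 100, 5 were poor, and 3 were rich and 1 poor against each tissue. With median scaling 5 were poor, 0 against each tissue, and 43 differed between genotypes. With no scaling 2 were rich and 46 poor, 1 and 6 against each tissue, and 1 differed between genotypes. There miR-193 was at -0.1995, miR-22 at -0.5662, miR-101a at -0.317, miR-21 at -0.4097, miR-130a at -0.8748 and miR-290 at -0.005338, and the genotype difference of miR-26b was 0.05374. Scaled by the summed signal without miR-122a, 5 were poor, 1 against each tissue. The filter on a mean signal of 10 left 3 genotype differences, and the fit without a trend left 4. Liver set against all other arrays as 1 group, which adds the spread between the tissues to the error, gave 3 poor miRNAs (miR-145, miR-143 and let-7i). The Student's test named in the study's methods also gave 3, before and after adjustment. Without spleen 13 were poor and without heart 5, and without heart, lung or kidney 1, 0 and 0 differed between genotypes. Without the minimum difference 47 were higher and 57 lower, 19 and 6 against each tissue. Leaving out 1 array in turn gave 9 to 12 rich and 7 to 9 poor miRNAs, 4 to 5 and 1 to 2 against each tissue, and 2 to 22 genotype differences. Where 1 array of a group was left, it was assumed to vary as the others do.

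With the mouse number as a replicate block, 9 were rich and 8 poor, 5 and 2 against each tissue, and 8 differed between genotypes (9 as a random block), and the rich and poor calls were the same. Deviations of liver arrays from their group means correlated with those of same-numbered arrays at -0.18 to 0.31 across probes, and 4 of 8 correlations were above 0.1. The samples share only a number.

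The dim liver arrays limit what can be read of probes below a deposited signal of 10, which were 131 of 200 on all 4 liver arrays.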

Other observations

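Other lists held few or dim members. Under each scaling, miR-181a and miR-181b were lower in liver (median -0.65), as was miR-10b (-0.26). For miR-10b only kidney was above liver in mean scaled signal, with 97.5 against 11.8, and lung was at 10.9, heart at 8.43 and spleen at 5.98. Of the miR-34 family 2 of 3 were lower (median -0.38). These were miR-34b and miR-34c, whose deposited signals were 91 to 237 in lung and 1 to 3 in liver. In kidney, heart and spleen they were at most 17. Of 9 neuronal and islet miRNAs, all below a deposited signal of 10 on the liver arrays, 1 was higher and 5 were lower (median -0.03), and with the median scaling 3 were higher and 0 lower (median 0.01). miR-144 of red blood cells was at -0.62 ± 0.50 and did not pass (adjusted p = 0.320), with deposited signals of 5 to 13 in liver and 12 to 338 elsewhere. miR-103 was at -0.16, and at 0.00 with the median scaling, and passed in neither. Of the miR-26 pair, miR-26b was higher by 0.54 (at -1.17 without scaling) and miR-26a, at -0.26, did not pass. 

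Set against single tissues, liver had 12 rich and 19 poor miRNAs against lung, 8 and 10 against kidney, 12 and 9 against heart, and 12 and 9 against spleen.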
